A study of Homo sapiens with 4 samples.

Results

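Cells under endoplasmic reticulum (ER) or metabolic stress release a small group of hormones and growth factors, and 8 genes for such proteins were followed here: GDF15, FGF21, ADM2, VEGFA, STC1, STC2, ANGPTL4 and IGFBP1. They are known for stress-induced secretion, were chosen with earlier results of these data known and were matched by gene symbol, and all 8 were found among the 25192 genes of the deposited tables. The libraries came from A549, a human lung adenocarcinoma cell line. EV cells were transduced with the control empty virus, a retrovirus that expresses only GFP, and FCN3-virus-transduced cells received a virus made from the same GFP vector that carries the full-length coding sequence of FCN3 with a V5 tag, so that both groups carry a virus and GFP. RNA was taken 48 h after infection from 2 libraries per group, and the cells were sequenced in bulk with no sort of infected cells stated.

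ER stress is read by the sensors PERK, IRE1 and ATF6. PERK phosphorylates a translation initiation factor and so raises the transcription factor ATF4, which acts with DDIT3 (CHOP) on many genes, among them genes of secreted factors. Amino acid shortage and mitochondrial faults reach ATF4 by other kinases, and low oxygen acts on VEGFA, ANGPTL4, IGFBP1 and the stanniocalcins through the hypoxia-inducible factors. The secreted products act at a distance: GDF15 on appetite centers of the brainstem, FGF21 on liver, fat and brain, ADM2 on blood vessels, VEGFA on endothelial cells, ANGPTL4 on lipoprotein lipase, and STC1, STC2 and IGFBP1 on mineral balance and on the supply of insulin-like growth factors.

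Promoter sequence was looked at for the member with the largest fold change (ADM2), for that with the highest mean level in FCN3-virus-transduced cells (STC2) and for the known ATF4 target that was not detected (FGF21). RefSeq promoters on GRCh38.p14 were found for 5 of the 8 genes, and the 250 bases before each start were searched on both strands. The motifs were the ATF4 and C/EBP composite site CARE (TGATGNAA), the ER stress element ERSE, its variant ERSE-II, the unfolded protein response element UPRE (TGACGTGG), the cAMP response element CRE (TGACGTCA) and the core of the hypoxia response element HRE (ACGTG). The HRE core lies inside UPRE. Capitals mark a match, and each stretch is given 5′ to 3′ on the strand of its gene.
ADM2, chr22:50481293-50481542, plus strand: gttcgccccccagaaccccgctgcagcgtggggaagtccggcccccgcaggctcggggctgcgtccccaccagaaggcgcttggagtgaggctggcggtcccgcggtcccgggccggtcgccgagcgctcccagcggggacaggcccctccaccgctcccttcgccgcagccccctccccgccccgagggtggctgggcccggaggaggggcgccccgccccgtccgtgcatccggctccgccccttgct
STC2, chr5:173328465-173328664, minus strand, from 250 to 51 bases before the start: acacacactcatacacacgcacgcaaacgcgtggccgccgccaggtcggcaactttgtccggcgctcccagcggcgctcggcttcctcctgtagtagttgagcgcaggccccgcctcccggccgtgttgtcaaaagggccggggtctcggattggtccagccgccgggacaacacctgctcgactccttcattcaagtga
FGF21, chr19:48755274-48755523, plus strand: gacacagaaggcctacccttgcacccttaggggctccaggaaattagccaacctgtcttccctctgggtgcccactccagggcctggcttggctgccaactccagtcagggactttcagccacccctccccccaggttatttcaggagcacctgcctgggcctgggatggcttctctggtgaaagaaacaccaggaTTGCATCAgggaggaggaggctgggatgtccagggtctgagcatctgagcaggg
The FGF21 stretch held a CARE match, read from the minus strand, from 54 to 47 bases before the start. Among all 35116 promoters of the same length, 3.14% held this motif. ADM2, STC2 and GDF15 held none of the 6 motifs in this window, and ANGPTL4 held the HRE core from 234 to 230 bases before its start, a motif present in 18.5% of all promoters. A match describes letters, not a bound site. The ADM2 stretch was rich in G and C, at 78.8%, against 60% for FGF21. VEGFA, STC1 and IGFBP1 are not printed.

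The libraries held 16353554 to 35733735 expected counts, which are RSEM's estimated counts per gene, and in each group the replicate 1 library was the deeper. The level of FCN3, in TPM (transcript abundance per length on a scale of fixed sum), was 0.06 and 0 in EV cells and 41618 and 44730 in FCN3-virus-transduced cells, as the labels say. The epithelial keratins KRT8 and KRT18 were at 1982 to 2789 and 1612 to 2363 TPM. Of the 5 epithelial markers, 0 were called without the block described below and all 5 with it. With the block 3 were higher (KRT8 and KRT18 by 0.26 and 0.31 on the log2 scale, KRT19 by 1.27) and 2 lower (EPCAM at -1.13 and CDH1 at -0.57), EPCAM being at most 3.65 TPM. That fit called 36.2% of all tested genes, 19.1% as higher and 17.1% as lower. KRT8, KRT18 and CDH1 overlapped between the groups. DESeq2 with the block called 3 of the 5 markers (16.0% of all tested genes), EPCAM not among them (adjusted p = 0.085). Of 6 alveolar markers, NAPSA had 7 to 18 counts a library, and the other 5 had at most 1 count. Of 5 fibroblast markers, COL1A1 was at 2.70 to 8.12 TPM, COL3A1 at 0.06 to 0.41 TPM and DCN at 0, and none was called in either fit. The 3 endothelial and 2 hepatocyte markers had at most 4 counts in any library, with PECAM1 and ALB at 0. The summed level of the 5 leukocyte markers was 35.9 and 36.8 TPM in EV cells and 62.8 and 50.2 TPM with the FCN3 virus. Nearly all of it was CD68, a lysosomal gene that epithelial cells also express. With the block CD68 rose by 0.79 on the log2 scale (standard error 0.08, edgeR adjusted p = 5.6e-13). Without the block edgeR did not call CD68 (adjusted p = 0.036), while DESeq2 did (adjusted p = 2.9e-04). Whether CD68 bears on the other results was not tested. CD14 went the other way, at 1.99 and 1.06 TPM against 0.82 and 0.32 TPM. With the block edgeR called CD14 lower (log2 fold change -1.28, standard error 0.35), and DESeq2 did not (adjusted p = 0.2). The labels do not say whether same-group libraries came from separate cultures, so p-values measure the spread between these libraries, which may be technical. In bulk RNA, more cells expressing a gene and more RNA per cell cannot be told apart.

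Counts were compared with edgeR's quasi-likelihood test at a false discovery rate (FDR) of 0.01, over the 14099 genes that passed its filter on low counts. The test was run first without and then with a block for the replicate number, which compares FCN3 replicate 1 with EV replicate 1 and FCN3 replicate 2 with EV replicate 2. With the block little spread is left within each gene, so the blocked standard errors and p-values rest largely on variance pooled across genes. FGF21 did not pass the filter. The other 7 genes passed it in both EV libraries as well as in both FCN3 libraries. Of these 7, ADM2, STC2, GDF15, VEGFA and ANGPTL4 were higher in both FCN3 libraries than in both EV libraries, a pattern that 28.0% of all tested genes showed in this direction and 54.5% in either, while STC1 and IGFBP1 overlapped between the groups. Without the block, edgeR called 0 of the 7 at the FDR of 0.01, where 0.965% of all tested genes were called and 0.738% were called higher. At an unadjusted p under 0.05 it passed 5 of 7, all of them higher, against 13.6% of all tested genes passing as higher and 25.1% in either direction. With the block it called these 5 as higher, where 19.1% of all tested genes were called higher and 36.2% in either direction. DESeq2 without the block called 3 of 7, all higher (4.35% of all genes were called higher and 7.64% in all), and with the block 5 of 7, all higher (8.12%, and 16.0% in all). edgeR at an FDR of 0.05 called 3, all higher (4.43%), and limma-voom called 0. The median log2 fold change of the 7 was 0.76, against 0.02 over all tested genes. With 2 libraries against 2, an exact two-sided permutation test of a single gene cannot give a p below 0.333, so only the fits across all genes were used.

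**Figure D1:**
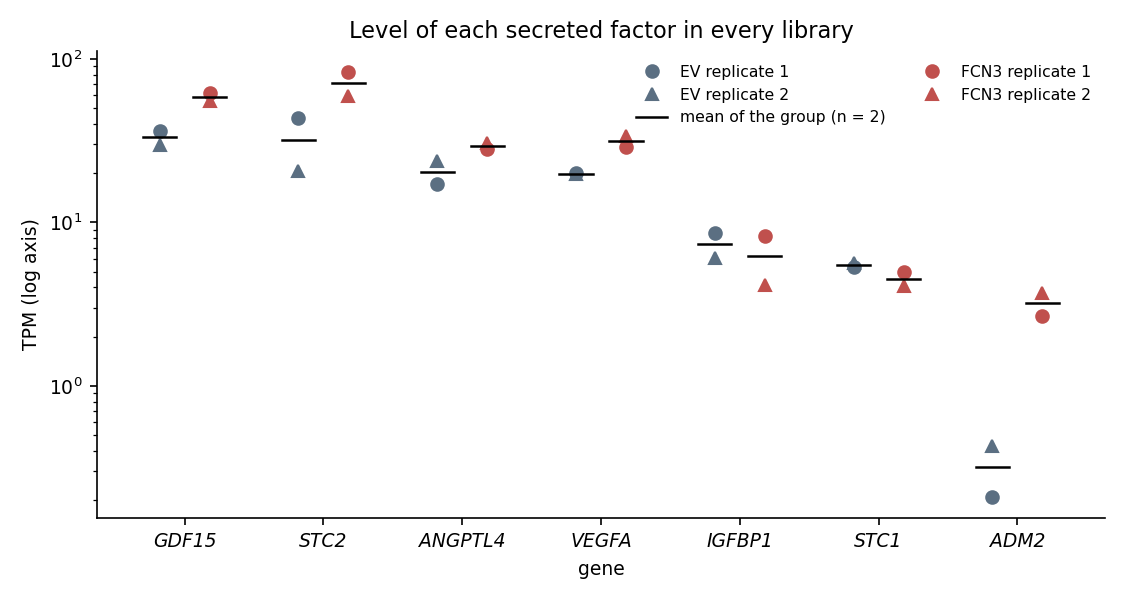
Level in TPM (log axis) of 7 secreted factors in each of the 4 libraries; circles are replicate 1, triangles replicate 2, and bars the mean of 2 libraries. ADM2, STC2, GDF15, VEGFA and ANGPTL4 lie higher in both FCN3 libraries than in both EV libraries, and FGF21, listed at 0 TPM in 3 libraries, is not drawn.

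ADM2 (adrenomedullin 2, also called intermedin) is a small peptide hormone of the calcitonin gene-related family that widens blood vessels. Its level was 0.21 and 0.43 TPM in EV replicates 1 and 2, and 2.68 and 3.72 TPM in FCN3 replicates 1 and 2. Both FCN3 libraries stood far above both EV libraries, although the gene stayed the least abundant of the 7. The expected counts behind these levels were 16 and 16 against 212 and 168, so that the EV level rests on few reads. The log2 fold change was 3.55 (standard error 0.38), which is 11.7-fold, with an adjusted p of 0.012 in edgeR without the block, which missed the FDR of 0.01. With the block it rose by 3.51 on the log2 scale (standard error 0.23, edgeR adjusted p = 1.1e-18), from 12.3-fold between the replicate 1 libraries and 8.27-fold between the replicate 2 libraries. DESeq2 called ADM2 also without the block (adjusted p = 5.2e-10). ADM2 held place 23 of 14099 when all tested genes were ordered from the largest increase down. ADM2 is a protein-coding gene at chr22:50919972-50924869 (GRCh37, plus strand). It shares 2381 bases with SBF1 on the opposite strand. The library kit keeps strand, but the strand setting of the counting is not given in the sources used here, so reads of these genes may not have been told apart. SBF1 itself was at 74.3 and 78.5 CPM (counts scaled to library size) in EV cells and 80.04 and 76.5 CPM with the FCN3 virus, with the groups overlapping.

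STC2 and STC1 encode the stanniocalcins, secreted glycoproteins first known from calcium and phosphate handling in fish, of which STC2 is a known ATF4 target and an inhibitor of the protease PAPP-A. STC2 was at 43.4 and 20.6 TPM in EV replicates 1 and 2 and at 83.3 and 59.6 TPM in FCN3 replicates 1 and 2. Both FCN3 libraries were the higher ones, and within each group replicate 1 was above replicate 2. STC2 differed 2.09-fold between the EV libraries, as much as it differed between FCN3 replicate 1 and EV replicate 1. Without the block the log2 fold change of 1.26 (standard error 0.36) had an edgeR adjusted p of 0.11. With the block it rose by 1.32 (standard error 0.07, edgeR adjusted p = 3.4e-23), by 2.09-fold in replicate 1 and 3.06-fold in replicate 2. The paired log2 differences of STC2, 1.06 and 1.61, both fell outside the blocked 95% interval of 1.19 to 1.46. The blocked error of STC2 is thus smaller than the distance between its pairs. Without EV replicate 1 the unblocked log2 fold change was 1.90 and was called, and without EV replicate 2 it was 0.82 and was not. In such fits with a library left out, 1 group holds a single library, which is assumed to vary like the other group. The STC2 gene spans chr5:172741726-172755450 (GRCh37, minus strand).
STC1 was at 5.34 and 5.68 TPM in EV cells and at 5.00 and 4.06 TPM with the FCN3 virus. It was slightly lower in both FCN3 libraries on this scale, but in CPM scaled by the TMM method the groups overlapped. Its log2 fold change was -0.16 (standard error 0.17, edgeR adjusted p = 0.62), with a 95% interval from -0.59 to 0.27, and from -0.39 to 0.09 with the block. The ratio of STC2 to STC1, in TPM, was 8.13 and 3.63 in the EV libraries and 16.7 and 14.7 in the FCN3 libraries. The STC1 gene spans chr8:23699442-23712319 (GRCh37, minus strand).

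GDF15 is a distant member of the TGF-beta superfamily that signals through GFRAL and RET and is released by many stressed tissues and tumors. It was at 36.3 and 29.9 TPM in EV replicates 1 and 2 and at 61.8 and 55.1 TPM with the FCN3 virus. The groups were well apart, by more than the distance within either of them. The log2 fold change was 0.92 (standard error 0.14, edgeR adjusted p = 0.026), or 1.89-fold, which missed the threshold, and GDF15 rose by 0.92 with the block (standard error 0.08, edgeR adjusted p = 4.4e-14). The paired folds of 1.85 and 1.95 were the closest to each other, as a ratio, among the 5 higher genes. DESeq2 called it also without the block (adjusted p = 9.4e-05). The GDF15 gene spans chr19:18485541-18499986 (GRCh37, plus strand), with the 73-base microRNA gene MIR3189 inside it.

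VEGFA is the main growth factor of blood vessel endothelium. It was at 19.97 and 19.77 TPM in the EV libraries and at 29.0 and 33.8 TPM in the FCN3 libraries. The EV libraries were nearly equal, and both FCN3 libraries stood above them. The log2 fold change of VEGFA was 0.76 without the block (standard error 0.11, edgeR adjusted p = 0.021), or 1.69-fold, which missed the threshold, and rose by 0.75 with the block (standard error 0.07, edgeR adjusted p = 1.4e-13). DESeq2 gave an adjusted p of 4.2e-05 without the block. The tables join 18 transcripts under VEGFA. Their mean length, weighted by RSEM with abundance, was 3499, 3478, 3490 and 3484 bases in EV replicates 1 and 2 and FCN3 replicates 1 and 2, a range of 0.608% with no order by group. The VEGFA gene spans chr6:43737921-43754224 (GRCh37, plus strand), and shares 188 bases with a long noncoding RNA gene on the opposite strand.

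ANGPTL4 is a secreted inhibitor of lipoprotein lipase that fasting and low oxygen induce in other tissues. It was at 17.2 and 23.8 TPM in EV replicates 1 and 2 and at 27.95 and 30.7 TPM with the FCN3 virus. Both FCN3 libraries were higher, but EV replicate 2 came near to them. The log2 fold change of 0.64 (standard error 0.18) had an edgeR adjusted p of 0.10 without the block, and with it the gene rose by 0.65 (standard error 0.09, edgeR adjusted p = 1.3e-08). The paired folds were 1.76 in replicate 1 and 1.37 in replicate 2. Without EV replicate 1 the log2 fold change was 0.40, and without EV replicate 2 it was 0.87. Replicate 1 was the lower library of its group for ANGPTL4, the reverse of STC2. The ANGPTL4 gene spans chr19:8428173-8439254 (GRCh37, plus strand).

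IGFBP1 binds insulin-like growth factors in the circulation and is made mostly by liver. It was at 8.59 and 6.09 TPM in EV replicates 1 and 2 and at 8.29 and 4.13 TPM in FCN3 replicates 1 and 2. The groups overlapped, and replicate 1 was the higher library in each. The log2 fold change was -0.11 (standard error 0.36, edgeR adjusted p = 0.88), with a 95% interval from -1.03 to 0.80, and from -0.41 to 0.20 with the block. Its sign turned without EV replicate 1 (0.21) and without FCN3 replicate 2 (0.26). The IGFBP1 gene spans chr7:45927959-45933259 (GRCh37, plus strand).

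FGF21 is a hormone of fasting and of mitochondrial and ER stress, and a known ATF4 target with CARE sites before its start. Its expected counts were 0 in both EV libraries, 0 in FCN3 replicate 1 and 1 in FCN3 replicate 2. Neither group passed the floor of 3 counts used for detection, which was 0.0823 and 0.179 CPM in EV replicates 1 and 2 and 0.0884 and 0.151 CPM in FCN3 replicates 1 and 2. FGF21 mRNA was not detectable at this depth in either group. The floors cover counting error only. The FGF21 gene spans chr19:49258781-49261590 (GRCh37, plus strand).

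**Figure D2:**
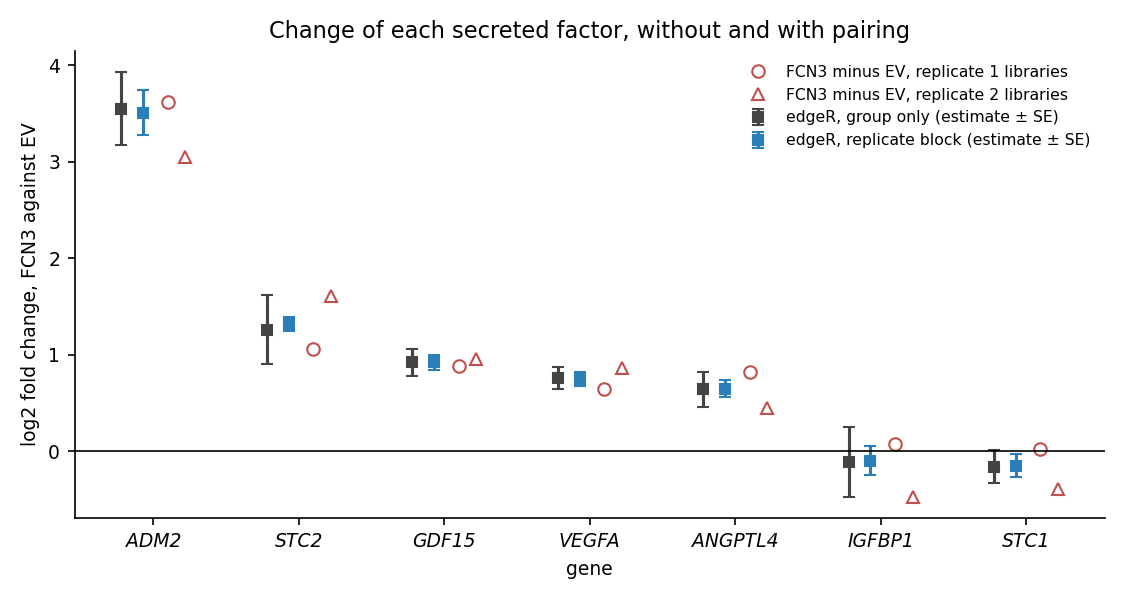
Log2 fold change, FCN3 against EV, of the 7 tested genes: filled squares are edgeR estimates with standard errors, without and with the replicate block, and open symbols are the differences between libraries of the same replicate number. The estimates nearly coincide while the error of STC2 shrinks from 0.36 to 0.07 with the block. That error rests largely on variance pooled across genes, and the STC2 pairs lie further apart, at 1.06 and 1.61. Both pairs lie above 0 for ADM2, STC2, GDF15, VEGFA and ANGPTL4.

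In EV cells the order of mean TPM was GDF15 (33.1 ± 4.53, SD, n = 2), STC2 (32.0 ± 16.1), ANGPTL4 (20.5 ± 4.68), VEGFA (19.9 ± 0.141), IGFBP1 (7.34 ± 1.77), STC1 (5.51 ± 0.240), ADM2 (0.320 ± 0.156) and FGF21. Each of the first 4 overlapped its neighbor in this order, while the steps from VEGFA to IGFBP1, to STC1 and to ADM2 were free of overlap. With the FCN3 virus the order was STC2 (71.4 ± 16.8 TPM, SD, n = 2), GDF15 (58.5 ± 4.73), VEGFA (31.4 ± 3.41), ANGPTL4 (29.3 ± 1.94), IGFBP1 (6.21 ± 2.94), STC1 (4.53 ± 0.665), ADM2 (3.20 ± 0.735) and FGF21. STC2 overlapped GDF15, VEGFA overlapped ANGPTL4, and IGFBP1 overlapped STC1. STC1 was 17.2-fold above ADM2 in EV cells and 1.42-fold with the FCN3 virus. Summed over the 8 genes, the level was 131 and 106 TPM in EV cells and 218 and 191 TPM in FCN3-virus-transduced cells.

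**Figure D3:**
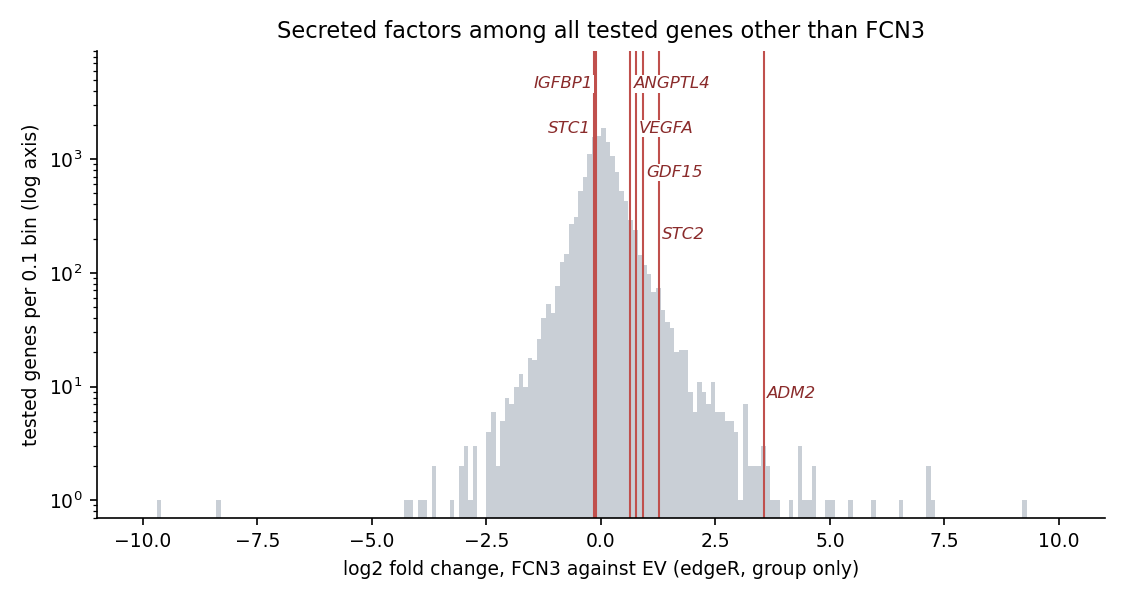
Number of tested genes (log axis) by log2 fold change, FCN3 against EV, in bins of 0.1, for all tested genes other than FCN3; red lines mark the 7 tested secreted factors. ADM2 at 3.55 lies far in the right tail, STC2, GDF15, VEGFA and ANGPTL4 lie on the right shoulder between 0.64 and 1.26, and STC1 and IGFBP1 lie near the center.

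The genes whose course over the 4 libraries was closest to each member were found by the Euclidean distance between log2 CPM values centered on each gene's mean, among 11968 other genes whose average log2 CPM reached 1. For ADM2 they were SLC22A31 (distance 0.485), the stress transcription factor ATF3 (0.521) and NLRP1 (0.543). The distances are not scaled to the size of a gene's change, which among the members was largest for ADM2. For STC2 they were GTF2IRD2 (0.196), PMAIP1 (0.209), which encodes the BH3-only protein NOXA, and KIAA1244 (0.214). GDF15 had GPD1L (0.0329), the ER translocation gene SSR1 (0.0338) and TRIM25 (0.0509) nearest to it, VEGFA had EPB41L4A-AS1 (0.0267), ACAD11 (0.0700) and C7orf31 (0.0727), and ANGPTL4 had GRIN3B (0.0444), PMS2CL (0.0855) and INPP1 (0.0856). Near to STC1 were REEP6 (0.0245) and STRIP2 (0.0258), and nearest to IGFBP1 were MOXD1 (0.134), SDK1 (0.136) and FSTL4 (0.156). With 4 libraries many genes share a course by arithmetic alone, and the distances are descriptions.

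The proteins need receptors or partners to act, and 21 such genes were listed. Of these, 13 passed the filter, and 0 were called without the block in edgeR. At an unadjusted p under 0.05 there were 3, all lower (11.6% of all tested genes passed as lower). DESeq2 without the block called 2 (7.64% of all tested genes in either direction). With the block edgeR called 3 lower and 0 higher, near the 17.1% of all tested genes that were called lower. The median log2 fold change was 0.03. The 3 genes were receptors of fibroblast growth factors, FGFR3 and FGFR4 being named after their values were seen. FGFR1, which with its coreceptor KLB receives FGF21, was at 83.2 and 93.2 TPM in EV cells and 40.1 and 49.4 TPM with the FCN3 virus, and fell by 0.88 on the log2 scale with the block (standard error 0.05, edgeR adjusted p = 1.9e-20). FGFR4 was at 21.4 and 29.7 TPM against 11.5 and 12.98 TPM (log2 fold change -0.93 with the block, standard error 0.08). FGFR3 was at 2.67 and 4.36 TPM against 1.34 and 1.65 TPM (log2 fold change -1.10 with the block, standard error 0.16). In all 3 genes both FCN3 libraries were below both EV libraries, as in 4 of the 13 tested genes of this list. Over all tested genes the groups did not overlap in 54.5%, of which 28.0% were higher and the rest lower, in percent of all tested genes, so this pattern is common.
Of the receptors for the other members, the VEGFA coreceptor NRP1 was at 103 and 104 TPM in EV cells and 91.2 and 81.4 TPM with the FCN3 virus, without a call in either fit (edgeR adjusted p = 0.012 with the block). NRP2, the growth factor receptor IGF1R and the protease PAPPA were not called in either fit, with log2 fold changes of 0.12, 0.09 and 0.04. The GDF15 receptor GFRAL had 0 counts in every library, while its coreceptor RET had 26, 13, 25 and 19 in EV replicates 1 and 2 and FCN3 replicates 1 and 2. The ADM2 receptor is made of CALCRL, at 0, 4, 9 and 5 counts in the same order, and a RAMP subunit, of which RAMP2 had 9, 10, 4 and 8 counts and RAMP1 and RAMP3 had 0. The VEGFA receptors KDR and FLT1, had at most 1 count in any library. The values of RET, CALCRL, RAMP2, KDR and FLT1 were seen before they were named.

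Relatives of the 8 genes by family were listed next, 38 in all, of which 21 passed the filter. Without the block edgeR called 1 of them, a decrease (0.227% of all tested genes were called lower), and with it 12, 7 higher and 5 lower (19.1% and 17.1% of all tested genes). The median log2 fold change was 0.35. The gene called in both fits was IGFBP4, which holds insulin-like growth factors until PAPP-A cleaves it, and which was the most abundant relative. It was at 1801 and 2069 TPM in EV cells and at 795 and 754 TPM with the FCN3 virus, and fell by 1.22 on the log2 scale (standard error 0.11, edgeR adjusted p = 0.0082, and 1.1e-25 with the block). The IGFBP4 gene spans chr17:38599702-38613977 (GRCh37, plus strand). Among the other binding proteins, IGFBP7 fell with the block (log2 fold change -0.52, standard error 0.06), while IGFBP6 rose (0.57, standard error 0.06) and IGFBP3 rose (0.32, standard error 0.05), whereas IGFBP1 was not called. The IGFBP3 groups overlapped, at 204 and 342 TPM in EV replicates 1 and 2 and 218 and 429 TPM with the FCN3 virus. Replicate 2 was the higher IGFBP3 library in both groups.
ADM, the paralog of ADM2, was at 64.6 and 112.8 TPM in EV replicates 1 and 2 and at 42.1 and 71.4 TPM with the FCN3 virus. It fell by 0.53 with the block (standard error 0.07, edgeR adjusted p = 1.0e-09), while the groups overlapped, replicate 2 being the higher library in both. ADM was 307 and 262 times as abundant as ADM2 in the EV libraries, in TPM, and 15.7 and 19.2 times in the FCN3 libraries. Among the tested paralogs of VEGFA, named after their values were seen, VEGFB rose by 0.39 with the block (standard error 0.09) and VEGFC fell by 0.54 (standard error 0.15) in edgeR, but DESeq2 with the block called neither (adjusted p = 0.07 and 0.11). The paired log2 differences of VEGFC were -0.21 in replicate 1 and -1.12 in replicate 2. PGF (log2 fold change 0.44 with the block) and FIGF (1.45), which encodes VEGF-D, were not called in either fit. TGFB1 was at 90.3 to 113 TPM in the 4 libraries and was not called in either fit.

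Transcription factors and feedback proteins known to act on the 8 genes were listed as 22 genes, all of which passed the filter. Without the block edgeR called 5, all higher (0.738% of all tested genes), and with it 12, all higher (19.1% of all tested genes), and the median log2 fold change was 0.40. The 5 were DDIT3 (log2 fold change 4.35), ATF3 (3.0), the pseudokinase TRIB3 (2.70), XBP1 (1.55) and CEBPG (1.28), whose product pairs with ATF4. ATF4 mRNA itself was at 399 and 429 TPM in EV cells and 555 and 623 TPM with the FCN3 virus, and rose by 0.61 with the block (standard error 0.05). This estimate was below those of ADM2, STC2, GDF15 and VEGFA (0.75 with the block), and close to that of ANGPTL4 (0.65, standard error 0.09). NFE2L2 rose by 0.39 with the block (standard error 0.05). HIF1A and EPAS1 were at 64 to 144 TPM and were not called in either fit, with log2 fold changes of -0.03 and -0.10. These values describe mRNA, while HIF1A is controlled mainly as a protein.

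VEGFA, ANGPTL4, STC1, STC2 and IGFBP1 also answer to low oxygen, and ANGPTL4 and FGF21 to the PPAR receptors, so other targets of both were read beside them. Of 20 hypoxia targets, ADM among them, 19 passed the filter and had a median log2 fold change of -0.08. Without the block 0 were called in edgeR (7 at an unadjusted p under 0.05, 4 of them higher, and 5 by DESeq2), and with it 12, 5 higher and 7 lower. Over all tested genes these shares were 25.1% at the unadjusted p, 7.64% by DESeq2, and 19.1% higher and 17.1% lower with the block. LDHA fell from 1873 and 1731 TPM to 1072 and 1015 TPM, by 0.68 with the block (standard error 0.05), PFKFB3 fell by 0.75 (standard error 0.05) and PGK1 fell by 0.18 (standard error 0.05). In CPM the PGK1 groups overlapped, at 744 and 638 in EV cells against 675 and 548 with the FCN3 virus. DESeq2 with the block did not call PGK1 (adjusted p = 0.018). SLC2A1 and BNIP3 were not called in either fit. NDRG1, named after its values were seen and also known as a stress gene outside hypoxia, was at 52.2 and 60.9 TPM against 97.6 and 101 TPM and rose by 0.92 with the block (standard error 0.06). Of 14 PPAR targets, 10 passed the filter and had a median log2 fold change of 0.06. Without the block 0 were called in edgeR (3 at an unadjusted p under 0.05 and 1 by DESeq2), and with it 4, 2 in each direction, near the shares over all tested genes of 25.1% at the unadjusted p and 36.2% with the block. PLIN2, a lipid droplet protein, rose by 0.30 with the block in edgeR (standard error 0.07). DESeq2 with the block did not call PLIN2 (adjusted p = 0.098). ACADVL, HADHA, CPT1A and ACADM were not called in either edgeR fit. PDK4, named after its values were seen, was at 6.77 and 2.18 TPM in EV cells and 0.68 and 0.39 TPM with the FCN3 virus, a log2 fold change of -3.01 with the block (standard error 0.20, edgeR adjusted p = 1.0e-18).

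**Figure D4:**
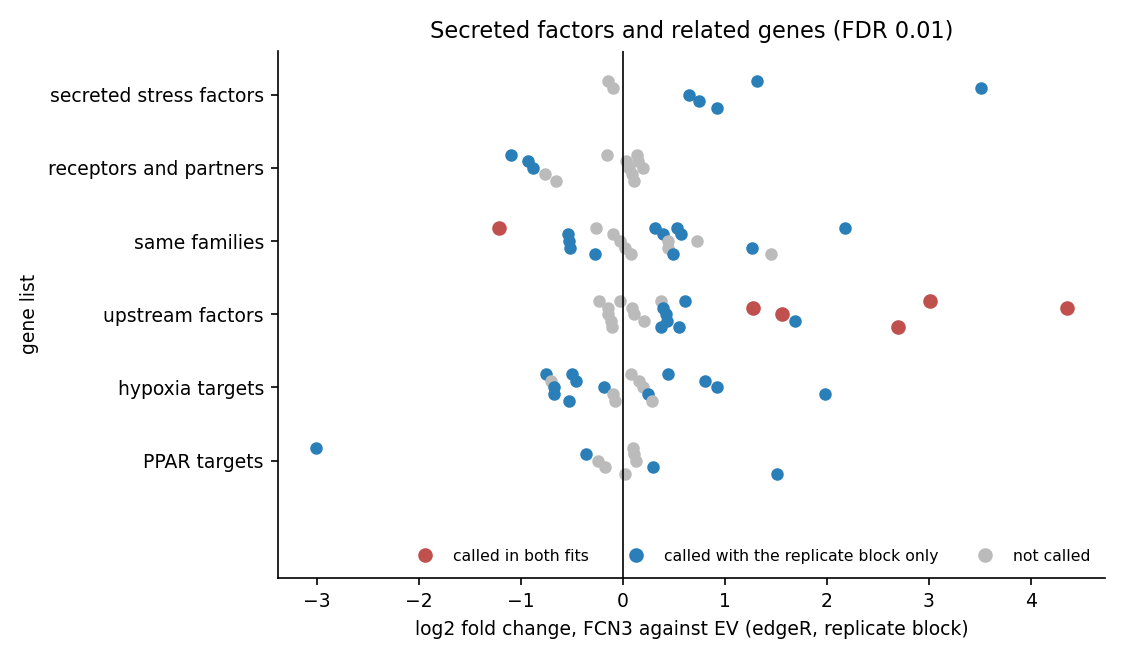
Log2 fold change, FCN3 against EV, from edgeR with the replicate block (horizontal axis) for the tested genes of 6 lists; each point is a gene, red if called at an FDR of 0.01 in both fits, blue if called with the block only and gray if not called. The 5 called secreted factors and the 12 called upstream factors lie to the right of 0, the 3 called receptors to the left, and the hypoxia targets on both sides with 5 called higher and 7 lower.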

How the data were processed

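RNA-seq libraries of A549 cells were analysed, 2 EV and 2 FCN3, grouped and numbered by the sample labels. The authors trimmed reads with Fastx_toolkit, aligned them to hg19 with STAR 2.6.1d and ran RSEM, which shares a read among the genes it fits. The deposited tables hold expected counts per gene (estimated counts, not normalized), TPM and FPKM, the latter not used, and the other columns deposited by the authors hold transcript lengths. Transcripts are RefSeq entries; the strand setting is not given in the sources used here.

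Differential expression was tested on rounded expected counts with edgeR 4.0.16 under R 4.3.3 (TMM, filterByExpr, quasi-likelihood test, Benjamini-Hochberg adjustment, FDR 0.01). The standard error was taken as log2 fold change (absolute) over the root of the F statistic. Paired differences and distances use log2 CPM with a prior count of 2. TPM corrects for length but not for the RNA taken by FCN3. The block follows the replicate numbers of the labels, which state no shared culture or day; across 8310 genes the difference of EV replicates 1 and 2 and that of FCN3 replicates 1 and 2 had an r of 0.806.

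DESeq2 1.42.0, limma 3.58.1 (voom, and log2(TPM + 1) and log2(TPM + 0.1)), RLE factors, no filter, at least 10 counts in every library, FCN3 left out, an offset from effective lengths, an FDR of 0.05 and each library left out were tried. Scripts were tested on simulated data. Gene positions come from GENCODE v44 on GRCh37, promoters from RefSeq. The 8 members and the lists were chosen with earlier results of these data known. Named were all members, list genes called without the block, up to 5 further genes per list by mean TPM, the 3 nearest profiles of each member, and genes said to be named after their values were seen. Of the genes this rule names, 2 are not reported here.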

Additional observations from a re-analysis of the deposited data

How the results depend on the processing

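The members' log2 fold changes kept their sign under all 16 alternatives for GDF15 (0.79 to 1.08), ADM2 (1.66 to 4.02, the lowest on log2(TPM + 1)), VEGFA (0.63 to 0.85), STC2 (0.82 to 1.90), ANGPTL4 (0.40 to 0.87) and STC1 (-0.35 to -0.02). Among these alternatives, the FDR of 0.05 changed only the threshold, so its fold changes are those of the main fit by construction. IGFBP1 ran from -0.77 to 0.26 and turned positive without EV replicate 1 (0.21) and without FCN3 replicate 2 (0.26). The call depends on the fit: of the 7 members, edgeR called 0, edgeR with the replicate block 5, DESeq2 3, DESeq2 with the block 5 and edgeR at an FDR of 0.05 3. Without a filter, where FGF21 was tested too, edgeR called 1 of 8. Each library left out, with the lone library of its group assumed to vary like the other group, gave 1 (lowest and highest 1), which was ADM2 in 3 cases and, without EV replicate 1, STC2.

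Over all genes, 136 were called in edgeR, 5103 with the replicate block, 1077 in DESeq2, 2257 in DESeq2 with the block, 1014 at an FDR of 0.05, 26 by limma with log2(TPM + 1) and 1 by limma with log2(TPM + 0.1), and 92 to 267 with a library left out. DESeq2, edgeR with the block, DESeq2 with the block and the FDR of 0.05 called 2, 3, 3 and 2 receptors and partners, 3, 12, 7 and 3 family relatives, and 5, 12, 7 and 6 hypoxia targets. DESeq2, edgeR with the block and DESeq2 with the block called 1, 4 and 1 PPAR targets, and the blocked fits of edgeR and DESeq2 called 12 and 10 upstream factors. On log2(TPM + 1) and log2(TPM + 0.1), limma called 2 and 0 upstream factors and 0 and 0 relatives. With a library left out, 0 to 1 relatives, 0 to 1 hypoxia targets and 0 to 1 PPAR targets were called; IGFBP4 lost its call without FCN3 replicate 1 and without FCN3 replicate 2. Ordered by CPM, which is not per length, 3 of 8 members kept their place among EV cells and 3 of 8 with the FCN3 virus. Other than these fits, no cause of a changed call was tested. Depth limits FGF21, at or under 1 count, and the EV level of ADM2, at 16 counts.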

Other observations

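The replicate number moved some of these genes as well. In the blocked edgeR fit, which holds the group in the model, the replicate number passed an FDR of 0.01 in 22.2% of all tested genes. STC2 was 2.09-fold higher in replicate 1 than in replicate 2 of EV cells and 1.42-fold higher with the FCN3 virus, a log2 difference of replicate 2 minus 1 of -0.77 (edgeR adjusted p = 1.6e-13). IGFBP1 was 1.39-fold and 2.02-fold higher in replicate 1 (log2 difference -0.75, edgeR adjusted p = 2.2e-04). GDF15, ADM2, VEGFA, STC1 and ANGPTL4 were not called for the replicate number, with edgeR adjusted p between 0.011 and 0.53. The increase of STC2 was 2.09-fold in the replicate 1 libraries and 3.06-fold in the replicate 2 libraries, where its EV level was lower, and no test of this difference was made.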
